A study of Mus musculus with 8 samples.

Results

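The comparison described here set testis RNA labelled musculus against testis RNA labelled ssp, over all probe sets of the arrays. It rests on 4 of the 8 arrays of the series, 2 musculus and 2 ssp, chosen by the subspecies word in the sample titles. The other 4 arrays, 2 castaneus and 2 domesticus, enter the estimate of array noise and the values set beside the comparison. They also enter the lowest intensity used, the choice of probe sets to test and the choice of probe set for a listed gene. Every sample is total RNA from testis of house mice, and no genotype, treatment or age is given in the sources used here. The labels call the arrays of a group technical replicates, give no number of animals, and do not say what ssp stands for, so every p-value here measures the spread between arrays of 1 RNA source and none measures the spread between mice. The title of the series asks how testis expression differs among 4 kinds of house mouse.

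The testis makes sperm inside the seminiferous tubules, where germ cells pass from spermatogonia through meiotic spermatocytes to round and then elongating spermatids, nursed by Sertoli cells. Between the tubules lie Leydig cells, which turn cholesterol into testosterone, together with blood vessels and macrophages. Whole testis RNA therefore mixes tubule and interstitial transcripts, with spermatid transcripts among the most abundant.

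Values are intensities as the authors deposited them, with a floor of 18.7 below which intensities were not ordered. A difference is the musculus mean minus the ssp mean on the log2 scale, a fold is the ratio of the geometric means, and n is 2 arrays per group throughout. The test covered 8874 of 12422 probe sets, leaving out dim ones. The arrays were those of testis: the transition protein gene Tnp2 read 69588 and 49943 on the musculus arrays and 78064 and 84310 on the ssp arrays, and the protamine gene Prm1 read 44770 to 83529. Over the tested probe sets the musculus arrays correlated at 0.914 with each other and agreed within 2-fold at 82.8%, and the ssp arrays correlated at 0.877 and agreed within 2-fold at 77.5%. These correlations are across probe sets within 1 pair of arrays. The root mean square log2 difference was 0.83 between the musculus arrays and 0.96 between the ssp arrays.

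In the musculus RNA, the steroid synthesis genes Star, Cyp17a1 and Hsd3b1, the prostaglandin synthase gene Ptgds, a synaptotagmin, transketolase, an alcohol dehydrogenase and the growth factor Igf2 were higher than in the ssp RNA. In the ssp RNA, a pyruvate dehydrogenase kinase, cardiac troponin C, a myosin light chain and the lysosomal enzyme Arsa were higher. In all 87 probe sets passed limma's test at an adjusted p under 0.05 with at least a 2-fold difference, which is 0.98% of those tested. Of these, 54 were higher in musculus (0.609%) and 33 higher in ssp (0.372%). The calls covered 78 named genes, 48 higher in musculus and 31 higher in ssp, with Aldh2 counted on both sides. They ranged from 2.92-fold to 32.6-fold, with a median of 5.64-fold. Among all probe sets tested the balance was the other way, with 4177 of 8874 above 0 and a median difference of -0.039. The 2 musculus and the 2 ssp arrays did not overlap at any of the 87 called probe sets, and they did not overlap at 41.1% of all probe sets tested. At an unadjusted p under 0.05 there were 1183, with 559 toward musculus and 624 toward ssp.

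The number of calls depended on every array. It was 0 without musculus replicate 2, 5 without musculus replicate 1, 4 without ssp replicate 2 and 26 without ssp replicate 1, of which 13 were among the 87. It was 20 without any 1 of the castaneus or domesticus arrays. Of the 81 called probe sets with a single gene symbol, 60 were called in none of these 8 fits. The 11 called in at least 5 of them were those of Pdk3, Tnnc1, Tkt, Syt11, Myl10, Ckmt2, Myh7, Lalba, Arsa, Atxn10 and the Aldh2 probe set that was higher in musculus. All 87 had the same direction in each of these fits in which they were tested. Because their arrays did not overlap, leaving out 1 array could not change it.

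**Figure D1:**
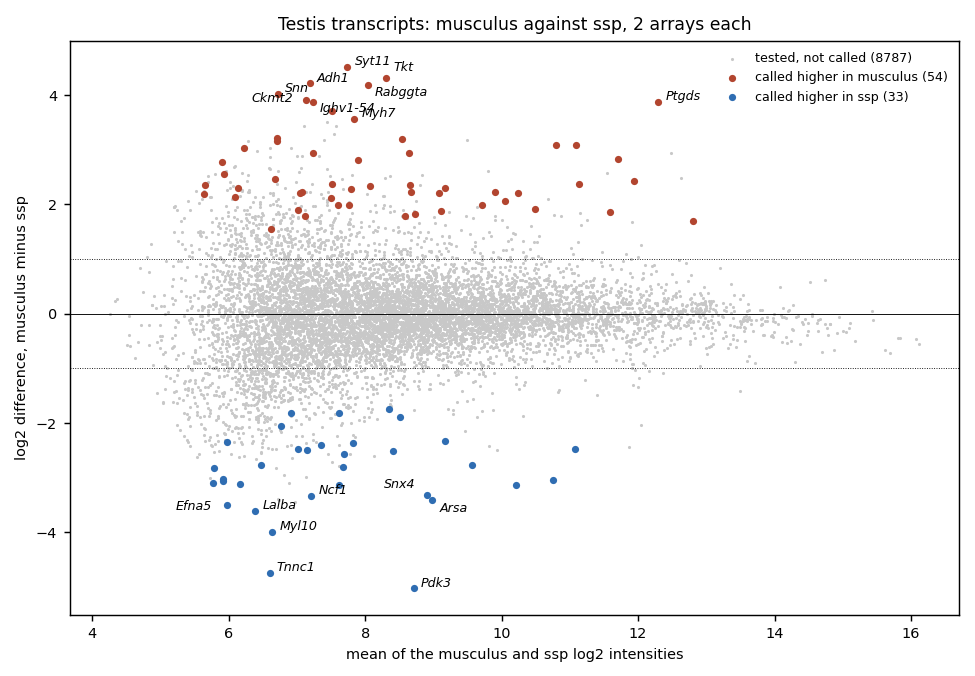
Each point is 1 of the 8874 tested probe sets, with the mean of the musculus and ssp log2 intensities on the horizontal axis and the log2 difference, musculus minus ssp, on the vertical axis. Red and blue points are the 54 and 33 called probe sets, dotted lines mark a 2-fold difference, and the scatter of uncalled points widens toward low intensity.

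Among genes of pyruvate and sugar metabolism, 2 stood at opposite ends of the comparison. Pdk3 encodes an X-linked kinase that switches off pyruvate dehydrogenase, the enzyme that feeds pyruvate into the mitochondrial citric acid cycle. It read 66.9 and 80.8 on the musculus arrays and 2164 and 2658 on the ssp arrays. Both castaneus and domesticus means were near those of ssp, at 1767 and 2429, so the low reading belonged to the musculus arrays. The difference was 32.6-fold (log2 -5.03, SE 0.26, adjusted p = 0.00372). None of the 6 other tested genes of pyruvate dehydrogenase and its kinases was called, and the beta subunit gene Pdhb, the next in size, read 2462 and 3209 in musculus and 4492 and 6371 in ssp (adjusted p = 0.348).

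Tkt, transketolase of the pentose phosphate pathway, went the other way. It read 1242 and 1602 in musculus and 69.8 and 71.8 in ssp, a 19.9-fold difference (log2 4.32, SE 0.24, adjusted p = 0.00372). The castaneus and domesticus means lay between, at 588 and 473. The 9 other tested genes of the pathway were not called, and their arrays overlapped in 7 of the 9. Pgd, which makes ribulose phosphate, read 1143 and 728 in musculus and 612 and 334 in ssp (adjusted p = 0.375). G6pd2 went the other way, at 302 and 199 against 581 and 399 (adjusted p = 0.271). So did Tktl1, with overlapping arrays and a difference of -1.27 (adjusted p = 0.504). The 10 tested genes of the pathway had a median difference of 0.07, with 6 positive. Among 20 tested genes of glycolysis and its germ cell isoforms none was called, and the largest differences were those of Aldoc (1.69, adjusted p = 0.374) and Pgam1 (1.03, adjusted p = 0.128).

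Enzymes that oxidise alcohols and aldehydes gave calls in both directions. Adh1, an alcohol dehydrogenase, read 495 and 798 in musculus and 60.5 and 18.9 in ssp, an 18.6-fold difference (log2 4.22, SE 0.59, adjusted p = 0.0418). The ssp arrays differed widely from each other there, and without overlap with the musculus arrays. Aldh2, the mitochondrial aldehyde dehydrogenase, was measured by 3 probe sets that disagreed. One read 1126 and 1136 in musculus and 151 and 99.1 in ssp, 9.24-fold higher in musculus (adjusted p = 0.0153). This probe set and the one called the other way both carry a suffix for probes shared with related transcripts. Another read 1421 and 854 against 241 and 148 and missed the threshold (adjusted p = 0.111). The remaining one read 106 and 104 in musculus against 365 and 372 in ssp, 3.52-fold higher in ssp (adjusted p = 0.0418). Of the 13 tested genes of these families, Adh1 alone was called by its brightest probe set. Adh4 read 17.9 and 14.1 in musculus and 74.2 and 117 in ssp (adjusted p = 0.0511), and Aldh1a1, which makes retinoic acid, read 4663 and 5953 against 2368 and 2583 (adjusted p = 0.169).

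Among further called enzymes, Ephx1, the microsomal epoxide hydrolase, was 4.62-fold higher in musculus (2607 against 564, adjusted p = 0.0491), and Gstm1, a glutathione transferase, was 3.25-fold higher. By a probe set with a suffix for shared probes, Gstm1 read 13803 and 12074 in musculus and 3650 and 4310 in ssp. It was the only one called of 17 tested glutathione transferase genes, which had a median difference of 0.38, and Mgst1, Gstm3 and Gsta4 had differences of 1.86, 1.81 and 1.66 with adjusted p-values of 0.0518, 0.0622 and 0.0658. A second Gstm1 probe set, with a suffix too, read 615 and 343 in musculus and 359.6 and 584 in ssp and was not called (adjusted p = 0.998). Oxct1, which lets tissues burn ketone bodies, was 5.9-fold higher in musculus, with group means of 149 and 25.2. Mat1a, a methionine adenosyltransferase, was 5.14-fold higher (114 against 22.1), and Crat, carnitine acetyltransferase, 3.67-fold (1062 against 289.5). The called Crat probe set carries a suffix for shared probes. The other Crat probe set, without one, read 7348 and 7864 in musculus and 6821 and 5805 in ssp, a difference of 0.27 that was not called. Dct, which takes part in melanin synthesis, was 3.47-fold higher in musculus (718 against 207). Higher in ssp were Ces1c, a carboxylesterase, which read 48.4 and 91.6 in musculus and 542 and 628 in ssp (8.77-fold), and Adsl, of purine synthesis, at 85.4 against 504 (5.9-fold). The adjusted p-values of these genes lay between 0.0323 and 0.0491.

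**Figure D2:**
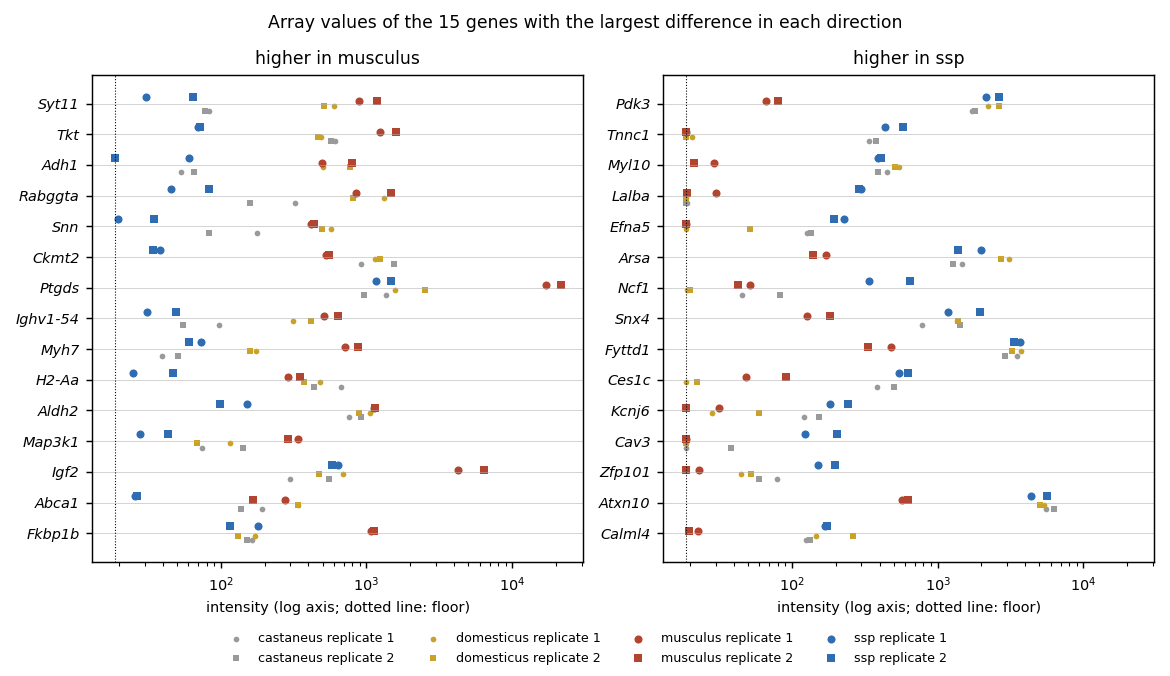
Intensities on a log axis of 30 genes, the 15 most different toward each group, with red for musculus, blue for ssp, grey for castaneus and yellow for domesticus, circles for replicate 1 and squares for replicate 2; the dotted line is the floor of 18.7. The red and blue points do not overlap for any of the 30 genes, and castaneus and domesticus lie with ssp for Pdk3 and with musculus for Ckmt2.

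Of the genes for making testosterone, Star, Cyp17a1 and Hsd3b1 were higher in the musculus RNA. Star carries cholesterol into mitochondria, the step that starts steroid synthesis, and it read 594 and 621 in musculus and 118 and 121 in ssp. The difference was 5.08-fold (log2 2.35, SE 0.25, adjusted p = 0.0237). Cyp17a1, which makes androgen precursors, read 8656 and 9709 in musculus and 1794 and 1608 in ssp, a 5.4-fold difference (log2 2.43, SE 0.26, adjusted p = 0.0237). Hsd3b1, which acts beside it, read 1476 and 1885 against 416.5 and 424, a 3.97-fold difference (adjusted p = 0.0419). Musculus replicates agreed closely at Star and Cyp17a1, and the ssp arrays were the lowest of all 8 for both.

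These 3 genes were the called members of a list of Leydig cell markers, of which 12 were tested. Of the 12, 10 had a positive difference and the same 10 had arrays that did not overlap, with a median difference of 1.28. Over all 6581 genes tested, 3158 were positive, 1318 were positive without overlap and the median was -0.027. Cyp11a1, which cuts the cholesterol side chain, read 1956 and 1530 in musculus and 660.2 and 424 in ssp (adjusted p = 0.254). Hsd17b3, the last step to testosterone, read 545 and 424 against 143 and 194 (adjusted p = 0.107). Nr5a1, the transcription factor of steroid-making cells, read 4425 and 3939 against 2053 and 2495 (adjusted p = 0.193). Insl3 read 219 and 89.2 in musculus and 117 and 192 in ssp, with overlapping arrays, and Hsd11b1 overlapped too. With 1 array left out, whichever of the 8 it was, none of the 3 genes was called. Over all alternatives the difference of Star lay between 2.31 and 2.45 and that of Cyp17a1 between 2.35 and 2.54. Second probe sets of Star, Cyp17a1 and Hsd3b1 all carry a suffix for shared probes, and none was called. Those of Star and Cyp17a1 had differences of 0.10 and -0.53 (adjusted p = 0.95 and 0.864). That of Hsd3b1 read 147 and 177 in musculus and 6.1 and 130 in ssp, with 1 ssp array under the floor. Its difference was 1.71 (SE 0.86, adjusted p = 0.469). Fewer cells of a type and less RNA per cell cannot be told apart in whole testis RNA. Probe sequences were not at hand. Whether the probes match the RNA of each group equally well was therefore not tested, for these genes or any other.

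Markers of other interstitial cells, of blood and of spermatids also had unequal summed levels in the groups, and their part in the Leydig result was not tested. The 12 macrophage markers tested had a median difference of 0.83 with 11 positive. The 14 on the arrays had a summed intensity of 5509 and 4834 in musculus and 2709 and 3581 in ssp. The 12 endothelial markers on the arrays summed to 2197 and 2057 against 1624 and 1032. The 10 tested had a median of 0.59 with 7 positive and none called. The most different were Flt1, a receptor for vascular growth factor, at 190 and 231 in musculus against 124 and 28.4 in ssp (adjusted p = 0.302), and Vwf, von Willebrand factor, at 642 and 798 against 274 and 165 (adjusted p = 0.0955). The endothelial median was 1.31 without ssp replicate 1 and 0.91 without musculus replicate 2. It was 0.46 without ssp replicate 2 and 0.41 without musculus replicate 1. The 5 red cell markers on the arrays, 4 of them tested, summed to 15150 and 19292 against 6060 and 2072. Of these the alpha globin gene Hba-a1 read 13328 and 16971 in musculus and 4975 and 1448 in ssp, with a wide gap between the ssp arrays (adjusted p = 0.229). Elongating spermatid markers, 15 tested, had 13 negative differences and a median of -0.27, and summed to 365925 and 305640 in musculus and 400451 and 456486 in ssp. That median was -0.42 without ssp replicate 1 and -0.15 without ssp replicate 2. No defining marker of these lists was at the floor on all 4 arrays. With quantile normalization the elongating spermatid median was -0.03 with 9 of 15 negative, and the Leydig median was 1.33 with 12 of 12 positive.

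Enzymes of cholesterol synthesis, which supplies the substrate of steroid hormones, had positive differences in 12 of 14 tested genes and a median of 0.73, with none called at an adjusted p under 0.05. The largest were those of Dhcr7, at 416 and 345 in musculus against 169 and 38.5 in ssp (adjusted p = 0.206), and Msmo1, at 258 and 471 against 87.4 and 67.3 (adjusted p = 0.124). Fdft1 and Sqle, at the entry to sterols, differed by 0.09 and 0.18. The median was 1.05 without ssp replicate 1 and 0.45 without ssp replicate 2.

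Ptgds, the lipocalin-type synthase of prostaglandin D2, was measured by 3 tested probe sets. One probe set read 17114 and 21600 in musculus and 1165 and 1466 in ssp, 14.7-fold (log2 3.88, SE 0.35, adjusted p = 0.0143). A second read 8001 and 9864 against 1069.9 and 1446, 7.14-fold (adjusted p = 0.0237). The other read 10839 and 7340 against 1873 and 1459 and missed the threshold (log2 2.43, adjusted p = 0.0564). All 3 carry a suffix for shared or fewer probes, and all 3 were higher on both musculus arrays than on both ssp arrays. The 5 other tested genes of prostaglandin synthesis and its receptors also had positive differences and were not called, Ptgis, the prostacyclin synthase, reading 721 and 504 in musculus and 262 and 174 in ssp (adjusted p = 0.128).

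Igf2, an imprinted growth factor, read 4215 and 6406 in musculus and 640.4 and 578 in ssp, 8.54-fold (log2 3.09, SE 0.41, adjusted p = 0.0383). This probe set carries a suffix for shared or fewer probes. A second Igf2 probe set, without a suffix, was at most 54 on any of the 4 arrays and was too dim to be tested. Of the 12 other tested genes of the insulin-like growth factor system none was called. Igfbp2, a binding protein, read 1748 and 1721 in musculus and 775 and 619 in ssp (adjusted p = 0.0923), while the receptor genes Igf1r and Igf2r differed by 0.17 and -0.40.

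Transcripts of striated muscle moved in both directions. Tnnc1, the cardiac and slow muscle troponin C, was at the floor on both musculus arrays, at 15.6 and 8.6, and read 437 and 579 in ssp, at least 26.9-fold higher in ssp (adjusted p = 0.00372). Myl10, a myosin light chain, read 29.2 and 21.3 in musculus and 387 and 407 in ssp, 15.9-fold (adjusted p = 0.00714). Cav3, the muscle caveolin, was at the floor on both musculus arrays and read 124 and 205 in ssp, at least 8.53-fold. Atp2a1, a calcium pump of the fast muscle reticulum, was 5.63-fold higher in ssp (59.7 against 336). In each of these 4 genes both ssp arrays were above both musculus arrays. Myl10 and Cav3 are not on the list of striated muscle genes described next. In the other direction, Ckmt2, the mitochondrial creatine kinase of muscle, read 530.2 and 557 in musculus and 38.2 and 34.1 in ssp, 15.1-fold (adjusted p = 0.0109). Myh7, the myosin heavy chain of heart and slow muscle, read 710.0 and 878 against 73.0 and 60.6, 11.9-fold (adjusted p = 0.0109). The called probe sets of Myh7, Cav3 and Atp2a1 carry a suffix for shared probes, and those of Tnnc1, Myl10 and Ckmt2 do not.

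Of 25 tested striated muscle genes, 2 were called higher in musculus and 2 higher in ssp, with a median difference of -0.32 that was -0.01 without musculus replicate 2. Actn3, the fast muscle actinin, read 2165 and 2159 in musculus and 496 and 114 in ssp and was not called (adjusted p = 0.102). Myh4, a fast myosin, read 62.9 and 65.8 against 172 and 218 (adjusted p = 0.0531). Of the listed genes on the arrays, 2 were at the floor on all 4 arrays, and the summed level of the list was 22792 and 22836 in musculus and 23478 and 27391 in ssp. A second probe set of Cav3 read 204 and 157 in musculus against 217 and 307 in ssp, and one of Myh7 read 140 and 65.9 against 167 and 62.4. Neither was called (adjusted p = 0.85 and 0.98). A second Ckmt2 probe set read 133 and 129 against 87.5 and 18.2 (adjusted p = 0.348). The second probe sets of Myh7 and Ckmt2 carry a suffix for shared probes, and that of Cav3 does not.

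In the germ cell lists 1 gene was called. Syce2, whose protein helps pair chromosomes in the synaptonemal complex, read 1049 and 1305 in musculus and 267 and 240.4 in ssp, 4.62-fold (log2 2.21, SE 0.28, adjusted p = 0.0361). The castaneus and domesticus means were 1298 and 1393, so the low reading belonged to the ssp arrays. The 8 other tested meiotic genes were not called, and Dmc1, a meiotic recombinase, read 35.1 and 93.7 in musculus and 212 and 134 in ssp (adjusted p = 0.338). Sry, the Y-linked gene that sets testis development going, read 63.4 and 65.0 in musculus and 244 and 212 in ssp, 3.54-fold (adjusted p = 0.0463). Its probe set carries a suffix for shared probes. Of 8 alternative settings that tested it, leaving aside fits with 1 array removed, 1 called it. A second Sry probe set, too dim to be tested, read 64.9 and 32.5 in musculus and 4.9 and 74.5 in ssp.

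None of the 10 spermatogonial genes was called. Among them Stra8, which starts meiosis in response to retinoic acid, read 202 and 117 in musculus and 29.3 and 21.8 in ssp (adjusted p = 0.1), and Kit, the receptor for stem cell factor, 476 and 458 against 157 and 176 (adjusted p = 0.0929). None of the 17 round spermatid and acrosome genes or of the 15 elongating spermatid genes was called either. Their medians were -0.25 and -0.27, with 14 of 17 and 13 of 15 negative, and the first was -0.16 without musculus replicate 1. In the first list Ace, whose testis form is a sperm peptidase, read 3540.0 and 942 in musculus and 836 and 1029.8 in ssp (adjusted p = 0.576), and Pcsk4, a sperm proprotein convertase, 404 and 1098 against 1188 and 1186 (adjusted p = 0.533). In the second the 2 most different were Prm3 and Prm2. Prm3, a protamine family gene, read 7838 and 12244 in musculus and 17367 and 19461 in ssp (adjusted p = 0.263), and Prm2 143 and 115 against 114 and 429 (adjusted p = 0.683). The Prm2 probe set was far dimmer than that of Prm1, which read 44770 to 83529, and whether it reports Prm2 well was not tested. Gapdhs, the sperm glyceraldehyde phosphate dehydrogenase, read 47304 and 36230 against 64500 and 71488 (adjusted p = 0.34). The 16 Sertoli cell genes had a median of 0.12, which was -0.02 without ssp replicate 1 and 0.26 without musculus replicate 2, and none was called. The most different were Gdnf, which sustains spermatogonial stem cells, at 1.65 (adjusted p = 0.453), and Wt1 at -1.27 (adjusted p = 0.342). Smooth muscle genes of the tubule wall had a median of -0.13 over 7 tested (-0.41 without musculus replicate 1 and -0.05 without ssp replicate 1), with Tpm1 at -0.73 and Myh11 at -0.72 and none called.

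Immune transcripts gave calls on both sides. Tyrobp, a signalling adaptor of myeloid and natural killer cells, read 260 and 224 in musculus and 39.4 and 48.0 in ssp, 5.55-fold (adjusted p = 0.0396). It was the only macrophage marker called of 12. H2-Aa, a class II histocompatibility chain that presents antigen, read 288 and 348 in musculus and 24.9 and 47.1 in ssp, 9.24-fold (adjusted p = 0.0361). Its partner chain H2-Ab1 read 273 and 259 against 55.6 and 207 and was not called (adjusted p = 0.472), nor were the 25 other tested genes of antigen presentation. Itgae, an integrin of lymphocytes in epithelia, was 7.66-fold higher in musculus (419 against 54.7) by 1 probe set, while another read 939 and 781 in musculus and 1097 and 819 in ssp (adjusted p = 0.885). Lst1, a leukocyte transcript, was 3.72-fold higher in musculus (249.6 against 67.1). Tank, an adaptor of innate immune signalling, was 6.89-fold higher (157 against 22.75), and Psme1, an activator of the proteasome, 4.35-fold (379 against 87.2). Higher in ssp were Ncf1, a subunit of the phagocyte NADPH oxidase, at 51.6 and 42.4 against 340 and 651 (10.1-fold, adjusted p = 0.0361), and Defa23, a defensin, at 17.3 and 23.2 against 148 and 146 (7.07-fold, adjusted p = 0.0163). For Defa23, 1 musculus array was at the floor.

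Immunoglobulin heavy chain probe sets were higher in musculus where they were called. Ighv1-54 read 513 and 639.6 in musculus and 31.2 and 49.5 in ssp, 14.6-fold (adjusted p = 0.0228). An Ighm probe set read 516 and 773 against 108 and 74.1, 7.05-fold (adjusted p = 0.0379), and another 158 and 129 against 33.4 and 31.3, 4.42-fold (adjusted p = 0.0361). The names of all 3 end in a letter for cross-matching probes. The 5 other tested Ighm probe sets had differences of -0.51 to 1.20 and were not called. Over the 23 tested immunoglobulin genes the median was -0.10, with 11 positive. It was 0.25 without musculus replicate 2, 0.15 without ssp replicate 1, -0.35 without ssp replicate 2, 0.16 without domesticus replicate 2 and -0.23 without castaneus replicate 1. The 7 tested T and B lymphocyte markers had a median of -0.39 with none called. It was -1.01 without musculus replicate 1, 0.10 without musculus replicate 2, -0.79 without ssp replicate 1 and -0.04 without ssp replicate 2. The most different were Ccl5 at -1.70 and Cd4 at -0.78 (adjusted p = 0.232 and 0.706). Of 13 interferon-induced genes none was called, with Ifi35 at -2.83 (adjusted p = 0.139) and Irf8 at 2.28 (adjusted p = 0.0532).

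Among genes of membrane traffic and lysosomes, Syt11 had the largest difference toward musculus. This synaptotagmin, a membrane traffic protein, read 891 and 1174 in musculus and 30.9 and 64.4 in ssp, 22.9-fold (log2 4.52, SE 0.39, adjusted p = 0.014). The domesticus mean was 552 and the castaneus mean 80.3, so those groups lay on opposite sides. None of the 26 other tested genes of synaptic vesicles and SNARE proteins was called. Rabggta, a subunit of the enzyme that attaches lipid anchors to Rab proteins, read 852 and 1475 in musculus and 45.4 and 83.7 in ssp, 18.2-fold (log2 4.18, SE 0.53, adjusted p = 0.0361). Abca1, which exports cholesterol from cells, read 274 and 167 against 25.7 and 26.7, 8.16-fold, but a second probe set read 234 and 224 against 196 and 234 (adjusted p = 0.942). Ap5s1, of the AP-5 adaptor, was 3.47-fold higher in musculus (260.1 against 75.0). Higher in ssp were Snx4, a sorting nexin, at 126 and 182 against 1185 and 1942 (10-fold, adjusted p = 0.0361), Arcn1, a coatomer subunit, at 89.7 and 112 against 438 and 604 (5.14-fold, adjusted p = 0.0463), and Arsa, the lysosomal arylsulfatase A, at 172 and 140.2 against 1972 and 1375 (10.6-fold, adjusted p = 0.0129). Of 38 tested coat, sorting nexin and adaptor genes, 1 was called higher in musculus and 2 higher in ssp. Second probe sets of Arcn1 and Arsa also had negative differences, -0.87 and -1.20, and were not called.

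Genes acting in the nucleus and on RNA were split in the same way. Higher in ssp was Srsf2, a splicing factor, which read 717 and 1165 in musculus and 4544 and 5650.2 in ssp, 5.54-fold (adjusted p = 0.0361). Its other probe set read 545 and 722 against 526 and 697 (adjusted p = 0.977). It was the only one called of 49 tested splicing factor genes. Fyttd1, an mRNA export factor, read 481 and 335 against 3685 and 3363, 8.76-fold (adjusted p = 0.0143). Ints11, the cutting subunit of the Integrator complex, was 6.83-fold higher in ssp (33.85 against 231), and the transcription factor Npas1 5.74-fold (142 against 816). The zinc finger gene Zfp101 read 23.2 and 11.7 in musculus and 152 and 198 in ssp, 8.34-fold (adjusted p = 0.0164), where 1 musculus array was at the floor. Higher in musculus were Hmgn1, a nucleosome-binding protein, at 5045 and 5204 against 754 and 1290.2 (5.19-fold, adjusted p = 0.0393), Exosc7, of the RNA exosome, at means of 489 and 101 (4.83-fold), and Spdef, an ETS transcription factor, at 917 and 178 (5.14-fold). Hpf1, a partner of poly(ADP-ribose) polymerases, was 3.54-fold higher (803 against 226.84), Tspyl4, a relative of the Y-linked TSPY genes, 3.99-fold (388 against 97.2), and Mzt2, of the mitotic spindle, 3.63-fold (5852 against 1613).

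Signalling and channel genes followed. Higher in musculus were Map3k1, a kinase at the head of a MAP kinase cascade, at 339.5 and 288 against 27.9 and 43.7 (8.96-fold, adjusted p = 0.0418), and Fkbp1b, which binds calcium release channels, at 1077 and 1129.9 against 179 and 115 (7.69-fold, adjusted p = 0.0237). A second Map3k1 probe set went the other way, at 125 and 109.9 against 185 and 187, and was not called (adjusted p = 0.511). Frzb, a secreted inhibitor of Wnt, was 4.62-fold higher in musculus (283 against 61.15) and the membrane scaffold gene Cask 4.95-fold (157 against 31.7). Higher in ssp was Efna5, an ephrin ligand, at the floor on both musculus arrays and at 229 and 194 in ssp, at least 11.3-fold (adjusted p = 0.0393). Kcnj6, a potassium channel, read 31.6 and 15.7 against 184 and 242, 8.67-fold, where 1 musculus array was at the floor. Its second probe set overlapped, at 171 and 94.7 against 223 and 76.2 (adjusted p = 0.991). Calml4, a calmodulin-like gene, read 22.8 and 19.6 against 169 and 175, 8.13-fold (adjusted p = 0.0237). Mapk10, a Jun kinase, was 5.01-fold higher in ssp (258 against 1292), and its second probe set read 68.5 and 60.1 against 373 and 142 (adjusted p = 0.159). Nmur1, a neuromedin U receptor, was 6.95-fold higher (77.2 against 537) and Bmp8a, a growth factor of germ cells, 4.13-fold (53.7 against 222).

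Extracellular matrix, secreted and surface proteins completed the calls. Crtap, of collagen modification, read 2051 and 2284 in musculus and 445 and 606 in ssp, 4.17-fold, and Pcolce, an enhancer of procollagen cleavage, 2655 and 2899.8 against 717 and 757, 3.77-fold (adjusted p = 0.0361 for both). Col6a3, a collagen VI chain, went the other way, 3.34-fold higher in ssp (179 against 599), as did Ltbp2, of elastic fibres, 5.26-fold (71.2 against 375). Lalba, alpha-lactalbumin, read 30.1 and 19.2 in musculus and 300.3 and 287 in ssp, 12.2-fold (adjusted p = 0.0109), and was at or near the floor in both other groups, with means of 18.9 and 18.7. Slc4a1, the anion exchanger of red cells, read 31.3 and 25.1 against 175 and 116, 5.09-fold higher in ssp, whereas Hba-a1, Hbb-b2 and Alas2 of the same cells had positive differences of 2.49, 1.78 and 1.28. Gp1bb, of the platelet surface, was 4.68-fold higher in musculus (293 against 62.6) and the folate transporter gene Slc46a1 2.92-fold (168 against 57.65). Snn, stannin, read 416 and 434 against 19.8 and 34.8, 16.2-fold higher in musculus (adjusted p = 0.0257).

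Of the remaining called genes, Atxn10 read 569 and 632 in musculus and 4361 and 5628 in ssp, 8.27-fold (adjusted p = 0.0128), but its second probe set read 165 and 231 against 194 and 164 (adjusted p = 0.939). C9orf72 was 3.72-fold higher in ssp (190.0 against 707). Pdia4, a folding enzyme of the endoplasmic reticulum, was 3.99-fold higher in musculus (435 against 109), Ppdpf 5.2-fold (416 against 80.0), 1110008P14Rik 4.9-fold (1269 against 259) and Gm2022 4.6-fold (107 against 23.2), where 1 ssp array was at the floor. The 6 called probe sets without a single symbol comprised 4 higher in musculus, by 4.68 to 13.1-fold, and 2 higher in ssp, by 5.56 and 6.78-fold.

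Set beside castaneus and domesticus, the calls were shared between the groups. The 2 ssp arrays alone lay beyond the other 6 arrays at 34 of the 87 probe sets, the 2 musculus arrays alone at 30, both groups at opposite extremes at 21 and neither at 2. Among the 54 higher in musculus these counts were 22, 16, 15 and 1, and among the 33 higher in ssp they were 12, 14, 6 and 1. Neither group was extreme at Adh1, where the domesticus mean was 622 and the castaneus mean 59.4, close to musculus and ssp in turn. A large gap between musculus and ssp was the condition for a call, so an extreme group is partly built in. The share of all tested probe sets with an extreme group was not counted. The same 8 arrays also set the noise for the calls, so these counts describe the values and were not tested.

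**Figure D3:**
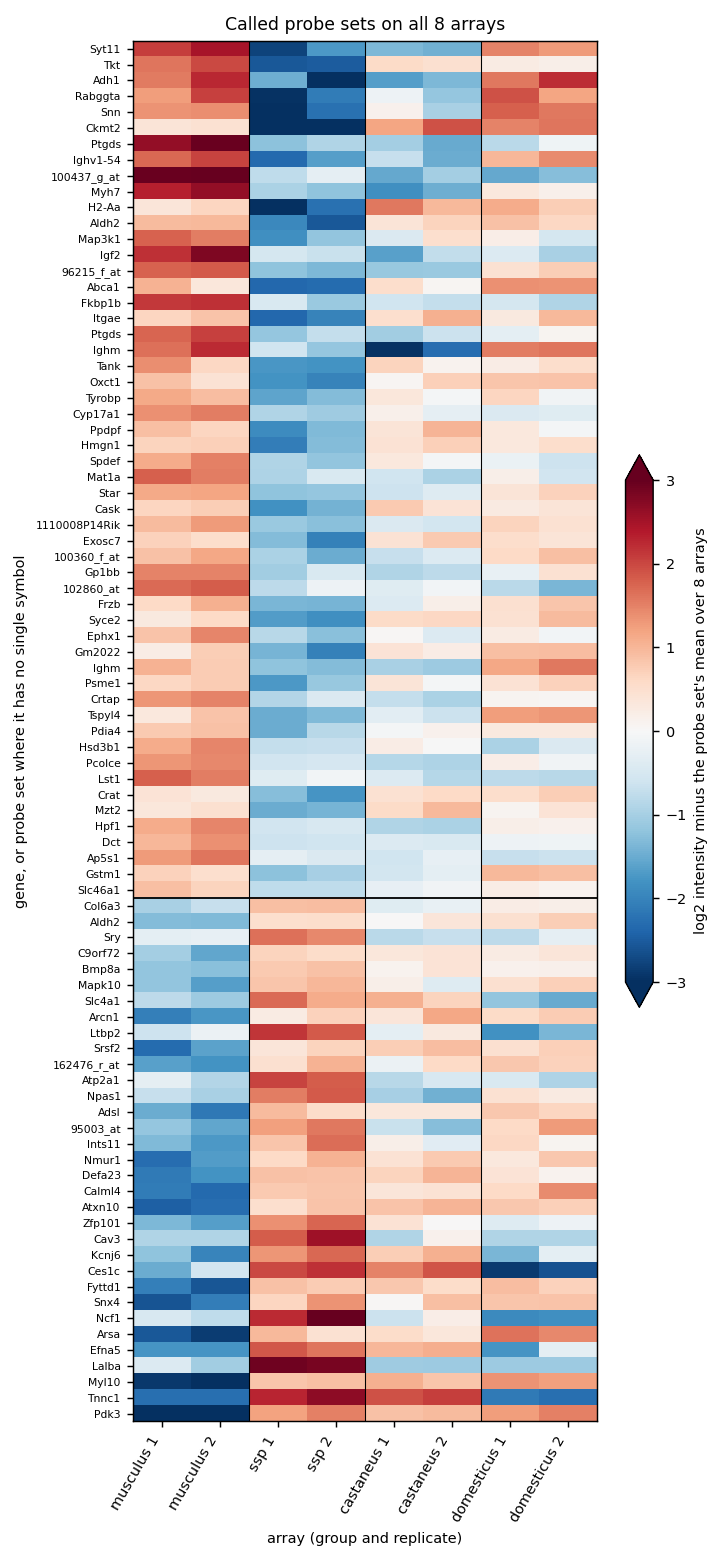
Each row is 1 of the 87 called probe sets and each column 1 array; colour is the log2 intensity minus the probe set's mean over the 8 arrays, and the black line separates the 54 higher in musculus from the 33 higher in ssp. Rows such as Pdk3 are blue on the musculus arrays alone, rows such as Ckmt2 blue on the ssp arrays alone.

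Where a called gene had another tested probe set, the readings often parted. There were 27 further tested probe sets of 20 genes. Of these, 19 had the direction of the gene's called probe set with the largest difference and 8 the opposite one. Only 3 of the 27 were called themselves, those of Ptgds and Ighm in the same direction and that of Aldh2 in the opposite one. Of the 24 not called, the larger differences included those of Ptgds at 2.43, Aldh2 at 2.55, Mapk10 at -1.84 and Hsd3b1 at 1.71. Those of Atxn10, Srsf2, Kcnj6 and Gstm1 lay within 0.13 of 0, with standard errors of 0.38, 0.34, 0.63 and 0.43. So did those of Star, Abca1 and Myh7, with standard errors of 0.37, 0.31 and 0.76. Of the 87 called probe sets 27.6% carried a suffix for shared or fewer probes, against 20.4% of those tested. Besides those said above to carry one, they included the called probe sets of Arcn1, Cask, Defa23, Gm2022, Itgae and Srsf2.

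**Figure D4:**
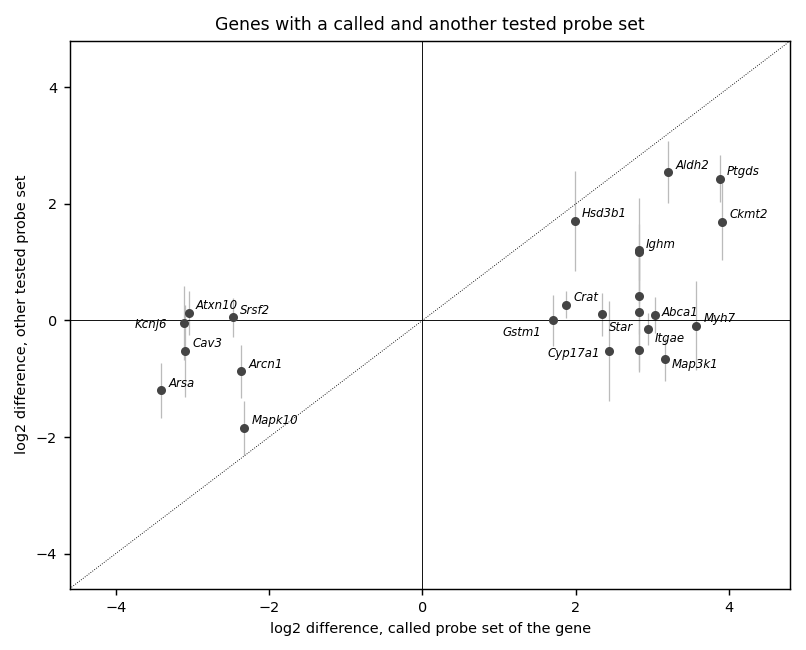
For each of the 24 further tested probe sets that were not called, of 20 called genes, the log2 difference of the gene's called probe set is on the horizontal axis and that of the other probe set on the vertical axis, with bars of 1 standard error; the dotted line marks equal values. Ptgds, Aldh2, Hsd3b1 and Mapk10 lie nearest the line, while Atxn10, Srsf2, Kcnj6, Gstm1, Star, Abca1 and Myh7 lie near 0. The 5 points above one another near 2.8 are Ighm.

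Housekeeping families had medians near the -0.027 over all genes. The 28 cytosolic ribosomal protein genes had a median of -0.10, the 37 proteasome subunit genes 0.07 and the 53 heat shock protein and chaperone genes 0.01, with none called in any of these 3 lists. The most different members were Rpl39l at -0.96 and Rps13 at -0.94, Psmd7 at -1.39 and Psmb8 at 1.24, and Hspa14 at 1.66 and Cct6a at -1.65, with adjusted p-values of 0.16 or more. These medians changed sign or reached 0 under some scalings or with 1 array left out. Markers of tissues that could accompany a testis were also read. The 11 liver genes on the arrays summed to 788 and 758 in musculus and 1101 and 1238 in ssp. The 5 tested had a median of -1.07, led by Fgg at -2.18 and Ttr at -2.05. Their median was -0.55 without ssp replicate 2. The 10 adipocyte genes on the arrays summed to 2456 and 2395 against 2040 and 2664. The 6 tested had a median of -0.73, with Pck1 at -1.97 and Fabp4 at -1.47. Scd1 went the other way, at 1399.6 and 1071 in musculus against 454.0 and 537 in ssp (adjusted p = 0.117), as did Lep, and the adipocyte median was 0.08 without ssp replicate 2, -0.35 without musculus replicate 2 and 0.52 with the filter at the 60th percentile. Genes of the epididymis and seminal vesicle summed to 578 and 546 against 1607 and 649. None of these was called.

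**Figure D5:**
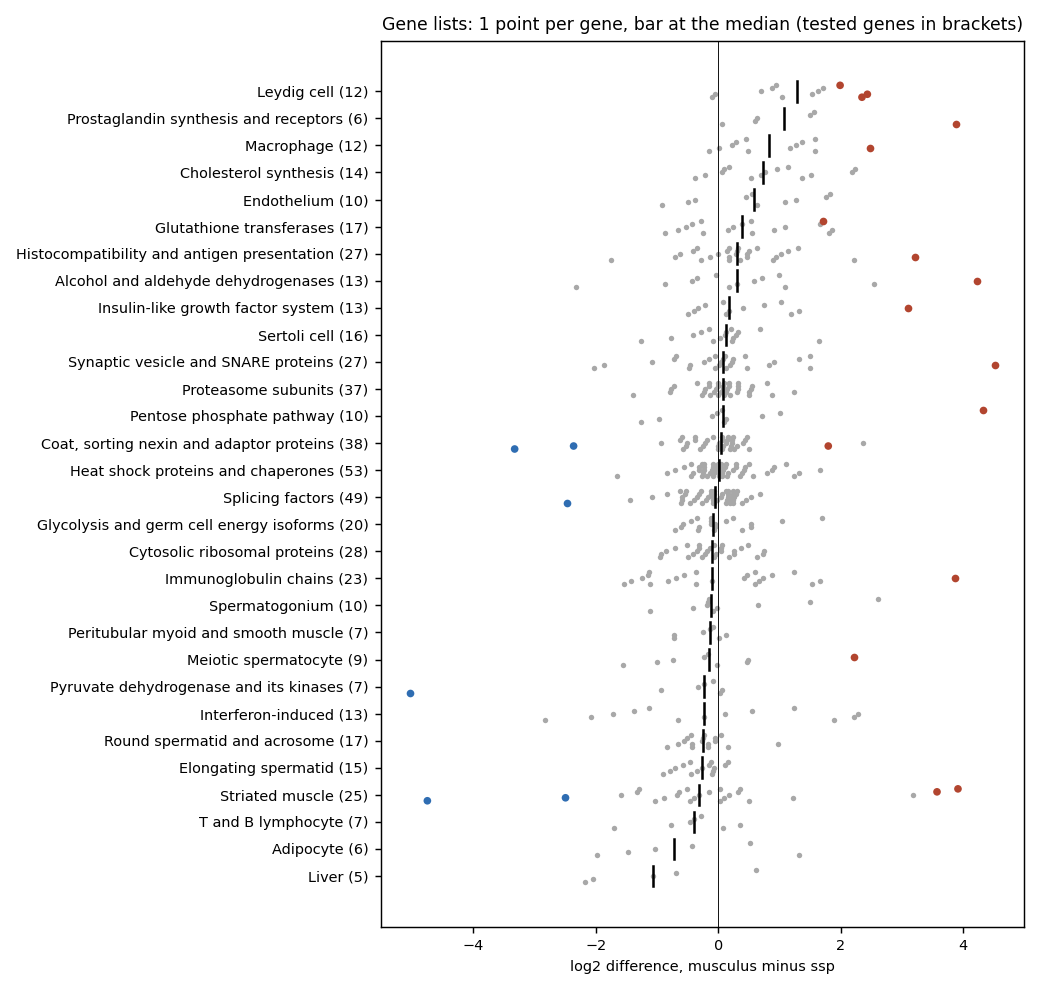
Log2 differences, musculus minus ssp, of the tested genes of 30 gene lists with at least 5 tested genes, 1 point per gene, with a bar at each median; red and blue points are called genes and grey points are not. The Leydig cell list has the highest median, 1.28, and the liver list the lowest, -1.07.

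Chromosome 16 held 7 called genes of 209 tested (3.35%), chromosome 14 held 7 of 232 (3.02%) and chromosome 18 none of 147, against 1.19% of all genes tested. On the X chromosome 2 of 179 genes were called, Pdk3 and Cask, and Sry was 1 of 4 on the Y chromosome. By brightness, 36 calls fell among the 2958 dimmest probe sets (1.22%), 26 among the 2958 of middle brightness (0.879%) and 25 among the 2958 brightest (0.845%). The ssp replicates differed by a median of 0.87, 0.45 and 0.29 log2 in these classes, and the musculus replicates by 0.74, 0.39 and 0.25. The 95% interval of a difference reached a median of 1.6, 0.91 and 0.70 to either side, so a dim transcript that was not called may still differ more than 2-fold.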

How the data were processed

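Total RNA from testis was hybridised to Affymetrix arrays, per the labels. The authors deposited 1 linear intensity per probe set and array, already scaled: the mean after trimming 2% at each end was 495.6 to 496.7 on every array. For the summary method, scaling step and genome build, nothing is given in the sources used here. Values under the 10th percentile, 18.7, were raised to it and log2 was taken. Probe sets at or above their array's 40th percentile on at least 2 arrays entered a limma fit (limma 3.58.1, R 4.3.3) with 1 mean per group over all 8 arrays, 4 residual and 2.34 prior degrees of freedom, and Benjamini-Hochberg adjustment. Calls needed an adjusted p under 0.05 and a log2 difference of at least 1. Of the probe sets, 10833 had 1 gene symbol, 396 several and 1193 none; symbols were updated and placed on chromosomes through a RefSeq table of GRCm38.p6 (10817 matched). List genes took their brightest tested probe set. When differences were planted in simulated arrays (8874 probe sets), 52.5% of those of log2 2 and 82.9% of those of log2 3 were called. The simulated noise was normal and independent between arrays, with no floor. These shares describe that setting and may not hold for the real arrays.

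Named are all genes called with arrays that do not overlap, the 15 largest each way with array values, and for each of the 30 lists with at least 5 tested genes the called or 2 most different members. The comparison and the 32 lists were chosen with earlier results of these data known. Further list members that are named were chosen after their values were seen. Precision is limited by the number of arrays.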

Additional observations from a re-analysis of the deposited data

How the results depend on the processing

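All calls rest on technical replicate arrays, 2 per group. Of the 87 calls (54 higher in musculus, 33 higher in ssp), the count was 28 without a filter (15 and 13), 146 with the filter at the 60th percentile (88 and 58), 196 with a trended and robust variance (124 and 72, with 63 of the 87 among them) and 0 with only the 4 musculus and ssp arrays (0 and 0, with 942 at an unadjusted p under 0.05). Leaving out 1 array gave 0 to 26 calls, 0 to 21 higher in musculus and 0 to 11 higher in ssp. The smaller fits had fewer residual arrays, and why the counts differed was not tested. With both floors, median centring, quantile normalization and the probe sets without a suffix, counts ran from 65 to 100. Median centring moved the median difference of all probe sets from -0.039 to 0.065. With the replicate number as a block 29 were called (14 and 15), all among the 87; replicate deviations correlated at 0.026 between musculus and ssp and at 0.085 to 0.171 between the other pairs of groups, 4 of the 6 pairs above 0.1, so whether the numbers pair the arrays is not settled. None of the 1398 values of named probe sets under the alternatives reversed: 602 stayed called, and 796 did not pass, 541 of these with 1 array left out. With 1 array left out no direction could reverse, because the musculus and ssp arrays did not overlap at these probe sets. The filter, variance and block settings leave the difference itself unchanged, as does keeping only probe sets without a suffix. The 4-array setting changes it only where an array is at or near the floor, because the floor was then taken from those arrays. The lack of reversals in those fits is therefore no measure of robustness. Of 540 medians of gene lists, 63 moved by more than the spread between arrays.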
